A study of Mus musculus with 24 samples.

Results

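The 10 genes described here carry out MHC class I antigen presentation: the heavy chains *H2-K1* and *H2-D1*, the light chain *B2m*, the peptide transporter genes *Tap1* and *Tap2*, the loading factor *Tapbp*, the immunoproteasome catalytic subunits *Psmb8*, *Psmb9* and *Psmb10*, and the transactivator *Nlrc5*. They were chosen by name, with earlier results of these data known, and no measured value enters the rule. Each symbol mapped to 1 identifier among the 56884 genes of the count table, and all 10 were among the 13679 genes that passed the filter on low counts. The libraries are RNA-seq of bone marrow-derived macrophages (BMDM) from 4 wild-type C57BL/6J females of 9 weeks of age, numbered 1, 2, 4 and 5. Each mouse gave 1 library to each of 6 groups, so that every group holds 4 animals and the same 4 animals recur in all groups. All cultures were differentiated with M-CSF, the growth factor that turns marrow precursors into macrophages. M0 cells were left naive for 24 h. M2 cells received the type 2 cytokines interleukin-4 (IL-4, 20 ng/ml) and interleukin-13 (IL-13, 20 ng/ml) over the same 24 h. The other 4 groups received the same cytokines after 1 h of pretreatment with an inhibitor that stayed in the medium: tunicamycin at 5 µg/ml (Tunica), Sal003 at 10 µM (Sal003), or oligomycin at 1 µM (Oligo and Oli_ISR). ISRIB at 1 µM was added in 1 of the 2 oligomycin groups. The sample titles and treatment fields place it in the libraries named Oligo, whereas the library names place it in Oli_ISR. These groups are therefore called by their library names, and no direction is assigned to ISRIB. Tunicamycin blocks N-linked glycosylation in the endoplasmic reticulum, Sal003 inhibits dephosphorylation of the translation factor eIF2α, oligomycin inhibits the mitochondrial ATP synthase, and ISRIB counteracts the effect of phosphorylated eIF2α. Macrophages grown from marrow in a dish have no tissue environment, and there was no group with an inhibitor but without cytokines.

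MHC class I molecules show peptides from proteins made inside the cell to CD8 T cells. Proteasomes cut those proteins, the TAP transporter moves the peptides into the endoplasmic reticulum, tapasin helps to load them, and the loaded heavy chain travels with its light chain to the cell surface. Interferons are known to raise most genes of this pathway. Several steps of that control are well known: STAT and IRF factors act on the promoters, NLRC5 joins an enhanceosome on the class I promoters, and the immunoproteasome subunits replace their constitutive counterparts in newly built proteasomes.

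Of the genes, 7 lie on chromosome 17, in or near the mouse MHC. In GRCm39 with GENCODE gene models, *Tapbp* (34134873 to 34148267, plus strand) was followed by *H2-K1* (34214987 to 34219321, minus strand), *Psmb9* (34400960 to 34406738, minus strand), *Tap1* (34405996 to 34416199, plus strand), *Psmb8* (34416690 to 34420428, plus strand), *Tap2* (34422501 to 34435829, plus strand) and *H2-D1* (35481691 to 35486475, plus strand). *B2m* lies on chromosome 2 (121977957 to 121983594, plus strand). *Psmb10* (106662362 to 106665077, minus strand) and *Nlrc5* (95160984 to 95253900, plus strand) lie on chromosome 8. *Psmb9* and *Tap1* run away from each other and their annotated ends overlap by 743 bases.

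RefSeq promoter windows, which hold the 250 bases before a gene's start, were at hand for 8 of the 10 genes. They were matched to GRCm39 and searched on both strands. The letters TGACG, 20 bases and then ATTGG, the inverted CCAAT letters, occurred in the windows of *H2-K1*, *H2-D1* and *B2m*, the 3 genes whose proteins form the class I molecule. That spaced pair was present in 0.0925% of 27025 promoter windows, 25 windows in all, and it was chosen after the promoters had been read. TGACG on its own was in 17.9% of windows and CCAAT on its own in 34.5%. The 30 bases that span the pair are shown because the NLRC5 enhanceosome is known to sit on elements of this kind, with TGACG and ATTGG in capitals. The *Tap1* window had TGACG at a like distance from its start but no ATTGG at that spacing. The *Psmb9* window held TGACG on the opposite strand, and CCAAT or its inverse was also in the *Tap1*, *Tapbp* and *Psmb9* windows.
H2-K1 (chr17:34219333-34219362, minus strand): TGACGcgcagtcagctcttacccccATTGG
H2-D1 (chr17:35481969-35481998, plus strand): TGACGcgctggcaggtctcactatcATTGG
B2m (chr2:121978090-121978119, plus strand): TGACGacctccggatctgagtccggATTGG
Tap1 (chr17:34406444-34406473, plus strand): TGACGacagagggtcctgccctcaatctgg

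The *H2-K1* and *H2-D1* stretches had the same base at 23 of 30 positions, and *H2-K1* and *B2m* at 13 of 30. The stretch began 41 bases before the RefSeq start in *H2-K1*, 101 bases before it in *H2-D1* and 78 bases before it in *B2m*. GENCODE begins *H2-D1*, *B2m* and *Tap1* further upstream, so there these bases fall within the annotated gene. In *H2-K1* they lie upstream of both starts, and the 150 bases before that start (chr17:34219322-34219471, minus strand, same capitals) read:
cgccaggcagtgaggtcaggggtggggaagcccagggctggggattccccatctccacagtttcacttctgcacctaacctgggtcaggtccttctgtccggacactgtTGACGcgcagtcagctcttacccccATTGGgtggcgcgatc

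The *B2m* window also held GAAACTGAAA, which matches the core of an interferon-stimulated response element (on the opposite strand, TTTC, 2 bases of any kind and TTTC, in 3.04% of windows). The *Psmb8* window held TTCCCAGAA, which matches the gamma-activated site letters (TTC, 3 bases of any kind and GAA, in 7.18% of windows). The *Psmb10* window held TTCCAGGGAA, which matches the wider spacing preferred by STAT6 (TTC, 4 bases of any kind and GAA, in 5.86% of windows). The *H2-K1* and *H2-D1* windows both held TTTCACTTCT, which the strict interferon-stimulated response element letters do not match. Looser forms of an element were not searched, so a window without a match is not shown to lack one. These are letter matches and no binding was measured. Windows for *Tap2* and *Nlrc5* were not used here.

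The libraries held 16238727 to 26725278 reads on genes, with a median of 18999998, and the 10 genes had between 437 counts (*Psmb9*) and 160875 counts (*H2-D1*) in a library. Levels are given as CPM, the counts divided by the TMM-scaled library size and set to a common total. Macrophage markers were abundant in every library, with the summed level of 8 markers at 31093 to 36949.7 CPM in M0, 11426 to 13836 in M2, 16442 to 18062 in Tunica, 13831 to 15562 in Sal003, 8782 to 9611 in Oligo and 13445 to 15349 in Oli_ISR. The sum was carried by *Lyz2* (23585 CPM in M0). In Tunica against M2 the 8 markers did not move together. There 4 were higher and 3 lower, near the 38.7% and 37.6% over all genes, with *Adgre1* going from 977 to 6678 CPM and *Csf1r* from 3732 to 821. In M2 against M0, 7 were lower and none higher, where 30.4% and 30.1% of all genes were. Lists of other cell types were low. Summed neutrophil and granulocyte markers (8 genes) reached 76.8 CPM in M0 and 0.286 CPM in Tunica, B cell markers (5 genes) 139 CPM in M0 and 20.0 CPM at most elsewhere, fibroblast markers (5 genes) 139 CPM in M0, dendritic cell markers (7 genes) 12.8 CPM in M0 and T cell markers (6 genes) between 11.1 CPM at least in M0 and 5.61 CPM at most elsewhere. The T cell genes *Cd3e* and *Cd3g* never exceeded 1 count, and erythroid genes never exceeded 3 counts. The part of these markers in the results below was not tested. In bulk RNA, fewer cells of a type and less RNA per cell cannot be told apart.

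Most of the class I genes were lower than in M2 with tunicamycin and higher than in M2 with the other 3 treatments. Against M2, all 10 rose with Sal003 (median log2 fold change 1.06), all 10 rose in Oli_ISR (median 0.84) and 9 rose in Oligo (median 0.69). With tunicamycin 7 of 10 fell and only *Nlrc5* rose among these 10 (median −0.42). With IL-4/IL-13 alone, 7 of 10 were lower than in naive cells and *Psmb10* was higher (median −0.24). Changes were called at an adjusted P under 0.05 in edgeR's quasi-likelihood test over all 13679 genes, and many genes of the transcriptome passed it. In M2 against M0, 30.1% of all tested genes were higher and 30.4% lower. In Tunica against M2, 38.7% were higher and 37.6% lower. The share higher was 25.9% in Sal003, 34.0% in Oligo and 27.9% in Oli_ISR, each against M2. The median log2 fold change over all tested genes lay between −0.02 and 0.01 in these comparisons. At the larger threshold of 2.5-fold, *Tap1* and *Nlrc5* rose with Sal003 (2.68% of all genes were called higher at that threshold), in Oligo (4.79%) and in Oli_ISR (2.94%), and *Tapbp* alone fell with tunicamycin (14.0%). *Nlrc5* sat at the threshold, at 2.51-fold with Sal003 and 2.51-fold in Oli_ISR, and dropped below it under several other settings, including the fit with the mouse as a block in Oli_ISR.

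**Figure D1:**
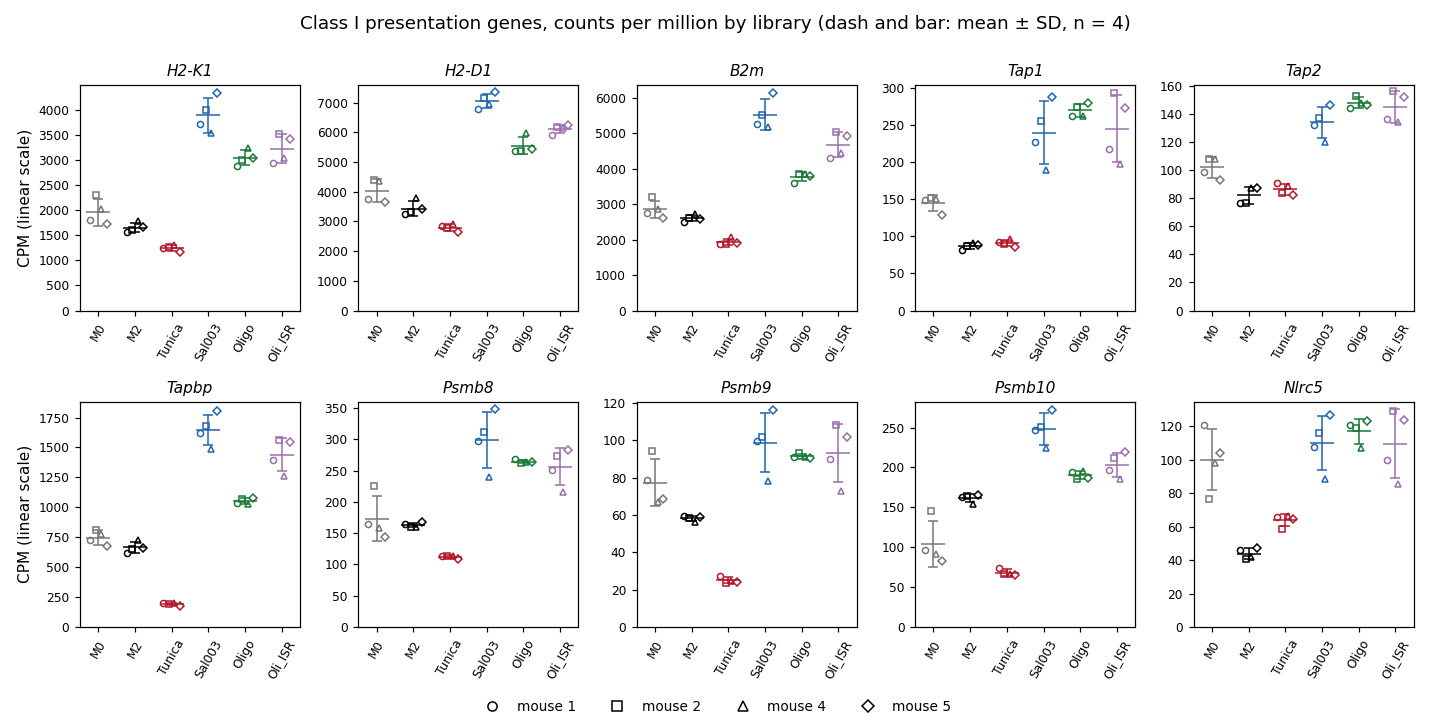
Level of each of the 10 genes in CPM (linear scale from 0) in every library, by group on the horizontal axis and by mouse as the marker shape, with the mean ± SD of 4 mice. The 4 Tunica libraries are the lowest group in *Tapbp*, *Psmb8*, *Psmb9*, *Psmb10*, *B2m*, *H2-D1* and *H2-K1*, while M2 is the lowest in *Nlrc5* (mean 43.9 CPM).

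The heavy chains and the light chain were among the most abundant transcripts described here. *H2-K1*, a classical heavy chain, stood at 1795, 2309, 2022 and 1716 CPM in M0 (mice 1, 2, 4 and 5), at 1559, 1612, 1782 and 1665 in M2, and at 1244, 1264, 1305 and 1159.9 in Tunica. It rose to 3719, 3996, 3532 and 4332 CPM with Sal003, to 2883, 3002, 3244 and 3040.5 in Oligo and to 2932, 3522, 3035 and 3410 in Oli_ISR. Every Sal003, Oligo and Oli_ISR library was above every M0 and M2 library, every Tunica library was below them, and M0 and M2 overlapped. The change against M2 was 1.24 ± 0.08 on the log2 scale with Sal003 (SE, adjusted P = 3.6e-12), 0.88 ± 0.08 in Oligo (adjusted P = 5.8e-10), 0.96 ± 0.08 in Oli_ISR (adjusted P = 2.4e-10) and −0.41 ± 0.08 with tunicamycin (adjusted P = 5.4e-05). *H2-K1* was 1.18-fold lower in M2 than in M0 (adjusted P = 0.01), a call that was lost without the M0 library of mouse 2 (log2 fold change −0.14, adjusted P = 0.086).

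*H2-D1*, the other classical heavy chain of this strain, followed the same order of groups at a higher level, from 2793 ± 109 CPM in Tunica (SD, n = 4) through 3432 ± 241 in M2, 4035 ± 385 in M0, 5544 ± 291 in Oligo and 6116 ± 139 in Oli_ISR to 7057 ± 239 with Sal003. Its neighbours in that order differed (adjusted P of 0.016 or less), except Oligo and Oli_ISR (adjusted P = 0.058), a pair that did pass with the mouse as a block (log2 fold change −0.14, adjusted P = 0.028). *B2m*, which encodes β2-microglobulin, the light chain shared by all class I molecules, stood at 2513, 2626, 2719 and 2582 CPM in M2 and at 5271, 5513, 5169.7 and 6146 CPM with Sal003. In Tunica it was at 1881, 1879, 2073 and 1898 CPM. These 3 groups did not overlap. *B2m* was 2.12-fold higher with Sal003 than in M2 (adjusted P = 5.7e-13) and 1.35-fold lower with tunicamycin (adjusted P = 1.2e-06). M2 and M0 did not differ past the threshold for *B2m* (log2 fold change −0.13, 95% interval −0.25 to −0.01, adjusted P = 0.081).

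Per kilobase of the canonical transcript, *B2m* was the most abundant of the 10 genes in M2 at 2403 CPM per kb, ahead of *H2-D1* at 1621 and *H2-K1* at 1022, with *Nlrc5* the least abundant at 5.79. Reads that align to several places were not counted. Of 100-base windows, 10.4% of *H2-K1*, 12.2% of *H2-D1* and 0.0% of *B2m* occur in other genes. The heavy chains may therefore be undercounted beside *B2m*, here and in the ratio below. The summed heavy chain level per kb divided by that of *B2m* was 1.18 ± 0.0515 in M0, 1.10 ± 0.0413 in M2, 1.17 ± 0.0471 in Tunica, 1.13 ± 0.0301 with Sal003, 1.29 ± 0.0498 in Oligo and 1.13 ± 0.0344 in Oli_ISR (SD, n = 4). The Oligo libraries were all above the M2 libraries (1.24 to 1.36 against 1.06 to 1.15) and above the Oli_ISR libraries (1.10 to 1.17). In the exact two-sided permutation test each of these differences had P = 0.0286, the smallest that 4 against 4 allows, and 0.0858 after adjustment over 6 comparisons, so that no comparison of this ratio passed. The ratio was higher in Oligo in 4 of 4 mice in both comparisons, with within-mouse log2 differences of 0.24 ± 0.03 from M2 and 0.19 ± 0.02 from Oli_ISR (SD, n = 4), and an exact sign-flip test of these pairs gave 0.125, the smallest that 4 pairs allow.

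The genes of peptide transport were lower in M2 than in M0, higher with Sal003 and in both oligomycin groups, and not called with tunicamycin. *Tap1*, which encodes a subunit of the transporter that carries peptides into the endoplasmic reticulum, stood at 149, 151, 150 and 129 CPM in M0 and at 82.1, 87.3, 90.4 and 88.6 CPM in M2. It reached 227, 255, 189 and 288 CPM with Sal003, 262, 274, 262 and 279.7 in Oligo and 218, 293, 197 and 273 in Oli_ISR. No M2 library reached the lowest M0 library, and all libraries of those 3 inhibitor groups were above all M0 libraries. The fall in M2 was 1.66-fold (adjusted P = 1.8e-06), and the rise over M2 was 2.75-fold with Sal003, 3.09-fold in Oligo and 2.82-fold in Oli_ISR. *Tap2*, the partner subunit, fell 1.24-fold in M2 (adjusted P = 0.00023) and rose 1.63-fold with Sal003, 1.81-fold in Oligo and 1.77-fold in Oli_ISR. In Tunica, *Tap1* stood at 86.0 to 96.7 CPM and *Tap2* at 82.4 to 90.7 CPM, within 0.06 ± 0.11 and 0.08 ± 0.07 of M2 on the log2 scale (adjusted P = 0.59 and 0.3).

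*Tapbp*, which encodes tapasin, the chaperone that holds empty class I molecules next to the transporter, changed most of the 10 genes with tunicamycin. It stood at 614, 651, 729 and 661 CPM in M2 and at 198, 189, 199 and 177 CPM in Tunica, which was 3.48-fold lower (log2 fold change −1.80 ± 0.07, adjusted P = 2.2e-17). It stood at 1618, 1678, 1489 and 1800.4 CPM with Sal003, at 1397, 1558, 1259 and 1542 in Oli_ISR and at 1037, 1066, 1029.7 and 1077 in Oligo. All Tunica libraries lay below all others and all Oligo libraries below all Oli_ISR libraries. The difference between Oligo and Oli_ISR was 1.37-fold (adjusted P = 9.3e-06), while Oli_ISR and Sal003 did not differ past the threshold (0.19 on the log2 scale, adjusted P = 0.053). The M2 level was 1.13-fold below M0 (adjusted P = 0.037), a call that 8 of the other settings lost. Of the canonical *Tapbp* exons, 30.7% overlap other annotated genes, which are *Zbtb22* on the same strand and *Gm19412* on the opposite strand. The counted level of *Zbtb22* was 47.4 CPM in M2 and 63.1 in Tunica.

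**Figure D2:**
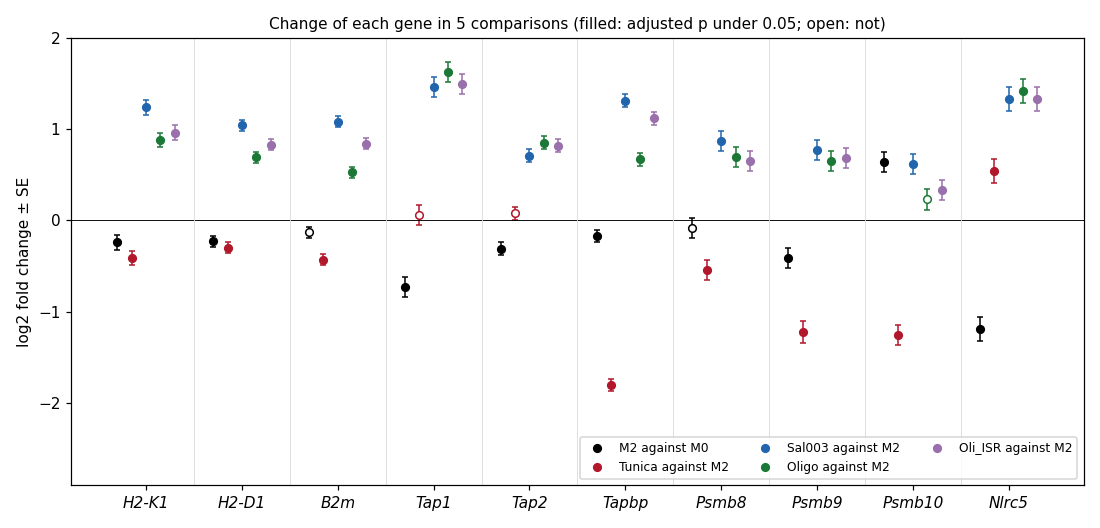
Log2 fold change with its standard error from the fit over all genes, for each gene and 5 comparisons, filled where the adjusted P was under 0.05. *Tapbp* with tunicamycin is the lowest point at −1.80 and *Tap1* in Oligo the highest at 1.63.

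The catalytic subunits of the immunoproteasome fell together with tunicamycin and were split in M2. *Psmb9*, the inducible subunit that takes the place of *Psmb6*, stood at 78.7, 94.4, 67.2 and 68.7 CPM in M0, at 59.3, 58.6, 56.1 and 58.8 in M2 and at 27.4, 23.8, 24.8 and 24.3 in Tunica. These 3 groups did not overlap, and the steps were 1.33-fold (adjusted P = 0.0027) and 2.32-fold (adjusted P = 1.1e-09). It rose 1.7-fold over M2 with Sal003, 1.57-fold in Oligo and 1.61-fold in Oli_ISR. Of its canonical exons 38.1% overlap *Tap1* on the opposite strand, and the strand setting of the counting was not given in the sources used here. *Tap1* itself stood at 87.1 CPM in M2, 91.1 in Tunica, 239.8 with Sal003, 269.6 in Oligo and 245 in Oli_ISR. Of the canonical *Tap1* exons, 11.7% overlap *Psmb9*. The part of this overlap in the levels of both genes was not tested. The antisense genes that overlap *Tap2* and *Psmb8* had at most 0.162 CPM in any library.

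*Psmb10*, the inducible subunit that takes the place of *Psmb7*, was the member that rose with IL-4/IL-13. It stood at 97.0, 146, 90.9 and 82.6 CPM in M0 and at 163, 164, 154 and 165 CPM in M2, with all M2 libraries above all M0 libraries (1.55-fold, adjusted P = 1.7e-05). In Tunica it fell to 74.1, 66.7, 66.7 and 64.7 CPM, which was 2.37-fold below M2 (adjusted P = 2e-10) and also below M0 (1.53-fold, adjusted P = 2.3e-05). It rose 1.54-fold with Sal003 (adjusted P = 2.9e-05) and 1.26-fold in Oli_ISR (adjusted P = 0.011). In Oligo it was 1.18-fold above M2, which missed the threshold without the mouse as a block (adjusted P = 0.058) and passed it with the block (adjusted P = 0.037). *Psmb8*, the inducible subunit that takes the place of *Psmb5*, was at 173 ± 35.8 CPM in M0 and 163 ± 3.93 in M2 (adjusted P = 0.52). It stood at 112 ± 2.41 CPM in Tunica (1.45-fold below M2, adjusted P = 7.2e-05) and at 299 ± 44.8 with Sal003 (1.83-fold above M2, adjusted P = 1.6e-07).

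The M0 library of mouse 2 held the highest count rate of its group for 8 of the 10 genes and the lowest for *Nlrc5*. Its levels were 225 CPM for *Psmb8*, against 144 to 165 in the other 3 M0 libraries, and 76.8 CPM for *Nlrc5*, against 98.4 to 121. Without it the small difference of *Psmb8* between M2 and M0 changed sign (0.08 on the log2 scale, adjusted P = 0.4).

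The constitutive subunits moved differently, so the balance between both kinds of subunit shifted within a library. *Psmb5* rose 1.92-fold with tunicamycin (42.5 ± 1.56 CPM in M2 and 81.5 ± 1.73 in Tunica, adjusted P = 6.9e-09), *Psmb6* was at 118 ± 1.24 and 115 ± 1.95 CPM (adjusted P = 0.59) and *Psmb7* at 69.4 ± 1.58 and 76.7 ± 1.69 CPM (adjusted P = 0.055). The ratio of *Psmb8* to *Psmb5*, per kb, was 3.69, 3.88, 3.75 and 4.05 in M2 and 1.41, 1.37, 1.43 and 1.31 in Tunica, a 2.78-fold lower ratio. The ratio of *Psmb9* to *Psmb6* was 0.755, 0.665, 0.673 and 0.720 in M0, 0.379, 0.379, 0.368 and 0.380 in M2 and 0.179, 0.161, 0.168 and 0.161 in Tunica. Each library of M0 was above each of M2, and each of M2 above each of Tunica, with steps of 1.87-fold and 2.25-fold. The ratio of *Psmb10* to *Psmb7* was 1.41 ± 0.16 in M0, 2.06 ± 0.0735 in M2 and 0.785 ± 0.0587 in Tunica (SD, n = 4).

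These ratios were tested in 18 comparisons with an exact two-sided permutation test. In 11 of them the groups did not overlap, and the exact test then gave P = 0.0286, the smallest that 4 against 4 allows, and an adjusted P of 0.0468. They were all 3 ratios in M2 against M0, in Tunica against M2 and in Sal003 against M2, *Psmb9* to *Psmb6* in Oligo (1.13-fold higher) and *Psmb10* to *Psmb7* in Oli_ISR (1.12-fold higher). In M2 against M0, the ratio fell 1.39-fold for *Psmb8* to *Psmb5* and 1.87-fold for *Psmb9* to *Psmb6*, and rose 1.47-fold for *Psmb10* to *Psmb7*. With Sal003 the ratios were 1.54-fold, 1.34-fold and 1.29-fold above M2. None of the 3 ratios differed past the threshold between Oligo and Oli_ISR (adjusted P = 0.147, 0.629 and 0.0791). A sign-flip permutation within the 4 mice, which pairs their libraries, cannot give a P below 0.125. The adjusted P of 0.0468 depends on how many of the 18 exact tests share the smallest P. All 11 such tests used the M2 libraries.

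**Figure D3:**
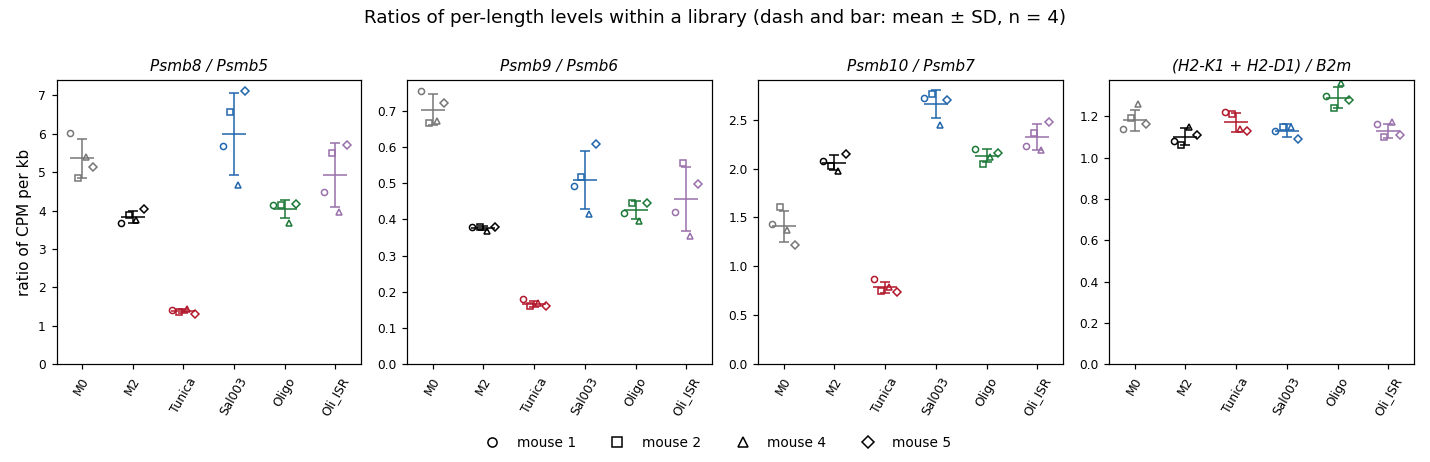
Ratio of per-length levels (CPM per kb of canonical transcript) within each library for the 3 pairs of inducible and constitutive subunits and for the summed heavy chains over *B2m*, by group and mouse, with the mean ± SD of 4 mice and axes from 0. The 4 Tunica libraries are the lowest in all 3 proteasome ratios, at 1.31 to 1.43 for *Psmb8* to *Psmb5*.

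*Nlrc5*, which encodes the transactivator of class I genes, was the member with the deepest fall under IL-4/IL-13. It stood at 121, 76.8, 98.4 and 104 CPM in M0 and at 46.0, 40.4, 41.6 and 47.4 CPM in M2 (2.28-fold lower, log2 fold change −1.19 ± 0.13, adjusted P = 1.1e-08). It stood at 65.6, 58.6, 66.4 and 64.8 CPM in Tunica, above all M2 libraries and below all M0 libraries (1.46-fold above M2, adjusted P = 0.00048). Sal003 gave 108, 116, 88.5 and 127 CPM, Oligo 121, 119, 107 and 123, and Oli_ISR 100, 129.5, 85.6 and 124. These 3 groups overlapped each other and M0. None of them differed from M0 past the threshold, with log2 differences of 0.14 ± 0.12 for Sal003, 0.23 ± 0.12 for Oligo and 0.13 ± 0.12 for Oli_ISR (adjusted P = 0.33, 0.091 and 0.34). For Oligo that difference did pass without the M0 library of mouse 1 (0.34 on the log2 scale, adjusted P = 0.019) and with no filter on low counts (adjusted P = 0.0082). In Tunica *Nlrc5* was above M2 while 7 of the 9 genes it stands beside here were below M2.

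Measured against naive cells, the other 9 genes were all higher with Sal003, in Oligo and in Oli_ISR, and all 10 were lower with tunicamycin. The background in all tested genes was 31.7% higher in Sal003, 35.5% higher in Oligo, 32.6% higher in Oli_ISR and 40.5% lower in Tunica, each against M0. These comparisons share the M0 libraries. The median log2 difference from M0 over the 10 genes was 0.80 with Sal003, 0.52 in Oligo, 0.66 in Oli_ISR and −0.63 in Tunica. The largest difference from M0 with tunicamycin was that of *Tapbp* (3.92-fold lower), followed by *Psmb9* (3.08-fold lower). *Psmb9* was close to the threshold in Oligo (1.18-fold above M0, adjusted P = 0.049), and that call was lost under 10 of the other settings.

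Between the oligomycin groups, 2 of the 10 genes differed and both were lower in Oligo than in Oli_ISR: *Tapbp* (above) and *B2m*, at 3592, 3854, 3862 and 3787 CPM in Oligo and 4321, 5042, 4438 and 4933 CPM in Oli_ISR (1.24-fold, adjusted P = 0.0003). Among all tested genes 21.3% were lower and 19.9% higher in that comparison. For *H2-K1* the log2 difference was −0.08 (95% interval −0.24 to 0.07), for *Tap1* 0.14 (−0.07 to 0.34), for *Psmb9* −0.03 (−0.24 to 0.18) and for *Nlrc5* 0.10 (−0.14 to 0.33).

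The order of groups by level was the same in *H2-K1*, *H2-D1*, *B2m*, *Tapbp* and *Psmb9*, with Tunica lowest, then M2, M0, Oligo, Oli_ISR and Sal003. Some neighbours in that order did not differ past the threshold of edgeR's test. They were the neighbours among the last 3 groups for *Psmb9* (adjusted P = 0.85 and 0.67) and Oligo and Oli_ISR for *H2-K1* (0.43) and *H2-D1* (0.058). They were also M2 and M0 for *B2m* (0.081), and Oli_ISR and Sal003 for *Tapbp* (0.053). *Tap1* and *Tap2* had M2 lowest, then Tunica, M0, Sal003, Oli_ISR and Oligo, and in both genes neither M2 and Tunica nor the neighbours among the 3 highest groups differed past the threshold. *Psmb10* had M0 below M2. Over the 6 group means, Pearson's r of the log2 level was 0.99 for *H2-K1* with *B2m*, 0.99 for *Tap1* with *Tap2*, 0.98 for *Tapbp* with *Psmb9*, and 0.41 for *Psmb10* with *Nlrc5*, as a description of points that share mice and libraries.

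Mice also differed within treatments. In Sal003, mouse 5 was the highest library for all 10 genes and mouse 4 the lowest for 9. In Oli_ISR, mouse 2 was the highest for 7 and mouse 4 the lowest for 7. In Oligo no mouse was the lowest for more than 4. Mouse 4 was also the lowest library for all 12 interferon-stimulated reference genes in Sal003, in Oligo and in Oli_ISR.

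Other genes of the pathway were read from lists of named genes, and each count is to be read against the share of all 13679 tested genes called in that direction: 30.1% higher and 30.4% lower in M2 against M0, and against M2 38.7% and 37.6% in Tunica, 25.9% and 24.6% with Sal003, 34.0% and 32.2% in Oligo, and 27.9% and 26.4% in Oli_ISR. Of 19 other class I and class I-like heavy chains 13 passed the count filter. In M2 against M0, 8 were lower and 1 higher. With tunicamycin 8 were lower and 2 higher than in M2. With Sal003 10 were higher and 2 lower, in Oligo 9 higher and 3 lower, and in Oli_ISR 10 higher and 3 lower, so that the lower counts were near or below the share over all genes. *H2-T23*, which encodes the nonclassical molecule Qa-1, stood at 359.7 CPM in M2, 83.6 in Tunica and 984 with Sal003 (log2 fold changes −2.10 and 1.45, adjusted P = 7.7e-16 and 4.7e-12). *H2-Q4* stood at 76.4 CPM in M2 and rose in Tunica to 99.9 (adjusted P = 0.012) and in Oligo to 343. *H2-T24* fell from 122 CPM in M0 to 19.8 in M2 and 8.64 in Tunica. *H2-M3*, named because its promoter window also holds the spaced letter pair and chosen after its values were seen, was at 57.1 CPM in M0, 36.1 in M2, 58.3 in Tunica and 69.0 with Sal003. Class I genes resemble each other: 10.4% of 100-base windows of *H2-K1* and 12.2% of *H2-D1* occur in transcripts of other genes, and reads that align to several places were not counted to any gene.

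Most genes of a list of other peptide loading and trimming genes, which also holds the stress chaperone *Hspa5*, were higher with tunicamycin. Of these 10 genes, 9 were higher in Tunica than in M2 and none was lower (38.7% and 37.6% over all genes). Their log2 fold changes ran from 0.10 to 3.53, with a median of 1.28. *Calr*, which encodes the chaperone calreticulin of the loading complex, rose from 1935 to 7296 CPM, *Pdia3* from 879 to 3119 and *Hspa5*, a marker chaperone of endoplasmic reticulum stress, from 1073 to 12367. *Tapbp* is a partner of the first 2 in the loading complex and went from 664 to 191 CPM in the same libraries. *Tapbpl*, which encodes a relative of tapasin, rose from 22.8 to 44.4 CPM (adjusted P = 1.8e-11). With Sal003 6 of the 10 were higher and none lower (25.9% and 24.6% over all genes). In Oligo 5 were higher and 3 lower (34.0% and 32.2% over all genes), *Calr* among the lower at 728 CPM. In Oli_ISR 3 were higher and 3 lower, near the 27.9% and 26.4% over all genes.

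Of 9 proteasome activator and assembly genes, 6 were higher and 2 lower with tunicamycin, where 38.7% of all genes were higher and 37.6% lower. *Psme1* and *Psme2* encode the subunits of the interferon-inducible activator PA28. They parted: *Psme1* was at 133 CPM in M2 and 63.4 in Tunica (log2 fold change −1.07 ± 0.10, adjusted P = 2.9e-10), and *Psme2* at 94.0 and 123 (0.39 ± 0.09, adjusted P = 0.00057). With Sal003 both rose, by 1.01 and 1.14 on the log2 scale.

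Of 12 interferon-stimulated reference genes, 10 were lower in M2 than in M0 (median log2 fold change −3.19, 30.4% lower over all genes). In the libraries with Sal003 11 were above M2 (median 3.17), in Oligo 10 (median 2.69) and in Oli_ISR 10 (median 2.98). Over all genes 25.9%, 34.0% and 27.9% were higher in the same order. With tunicamycin 5 were higher and 4 lower (median 0.14), near the 38.7% and 37.6% over all genes. *Ifit3*, an antiviral gene, stood at 262 CPM in M0, 3.7 in M2, 170 with Sal003 and 139 in Oli_ISR. *Irf7*, a transcription factor induced by interferon, stood at 519, 31.6, 793 and 652 CPM in the same groups. The medians over the 10 class I presentation genes were −0.24 in M2 against M0, 1.06 in Sal003 against M2 and −0.42 in Tunica against M2, and no difference between these lists was tested.

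Of 18 transcription factor genes that act on class I promoters, 8 were higher and 8 lower in M2, 3 higher and 13 lower with tunicamycin, 7 higher and 9 lower with Sal003, 6 higher and 8 lower in Oligo, and 7 higher and 7 lower in Oli_ISR. Over all genes the shares higher and lower were 30.1% and 30.4%, 38.7% and 37.6%, 25.9% and 24.6%, 34.0% and 32.2%, and 27.9% and 26.4% in the same order, and several of these counts lie near them. *Stat2*, which helps to carry the interferon signal to the nucleus, stood at 269.6 CPM in M0, 105 in M2, 76.9 in Tunica and 383 with Sal003. *Irf2*, an interferon regulatory factor, fell from 190.1 CPM in M2 to 55.5 in Tunica (adjusted P = 3e-19). Of 7 genes of interferon gamma reception and signalling, 3 were higher and 3 lower with tunicamycin, about the share over all genes. *Socs1*, an inhibitor of cytokine signalling, stood at 3.66 CPM in M0, 63.8 in M2 and 4.16 in Tunica. The receptor gene *Ifngr1* stood at 322 CPM in M2, 159 in Tunica, 197 with Sal003 and 133 in Oligo.

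MHC class II genes, which present peptides from outside the cell, are the nearest contrast. All 7 tested were higher in M2 than in M0 (median log2 fold change 1.26), and all 7 were lower than M2 in Tunica (median −3.98), Sal003 (−1.27), Oligo (−2.40) and Oli_ISR (−1.66). Among all tested genes 30.1% were higher in M2 than in M0. Against M2, 37.6% were lower in Tunica, 24.6% with Sal003, 32.2% in Oligo and 26.4% in Oli_ISR. *Cd74*, the invariant chain, stood at 1921 CPM in M0, 4815 in M2, 738 in Tunica and 1857 with Sal003. *Ciita*, the class II transactivator and a relative of *Nlrc5*, stood at 99.3 CPM in M0, 238 in M2, 15.3 in Tunica and 95.7 with Sal003. *Nlrc5* stood at 100.0, 43.9, 63.9 and 110.1 CPM in the same groups. The comparisons with M2 share its 4 libraries. Dendritic cell markers, of which 5 of 7 were tested, were also lower than M2 for 5 of 5 genes in each of Tunica, Sal003, Oligo and Oli_ISR (medians −2.52, −1.50, −1.85 and −1.80), with their summed level at 10.5 to 11.7 CPM in M2, 1.64 to 2.5 in Tunica, 3.11 to 4.22 with Sal003, 2.07 to 3.35 in Oligo and 2.71 to 4.96 in Oli_ISR. Their part in the class II values was not tested.

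**Figure D4:**
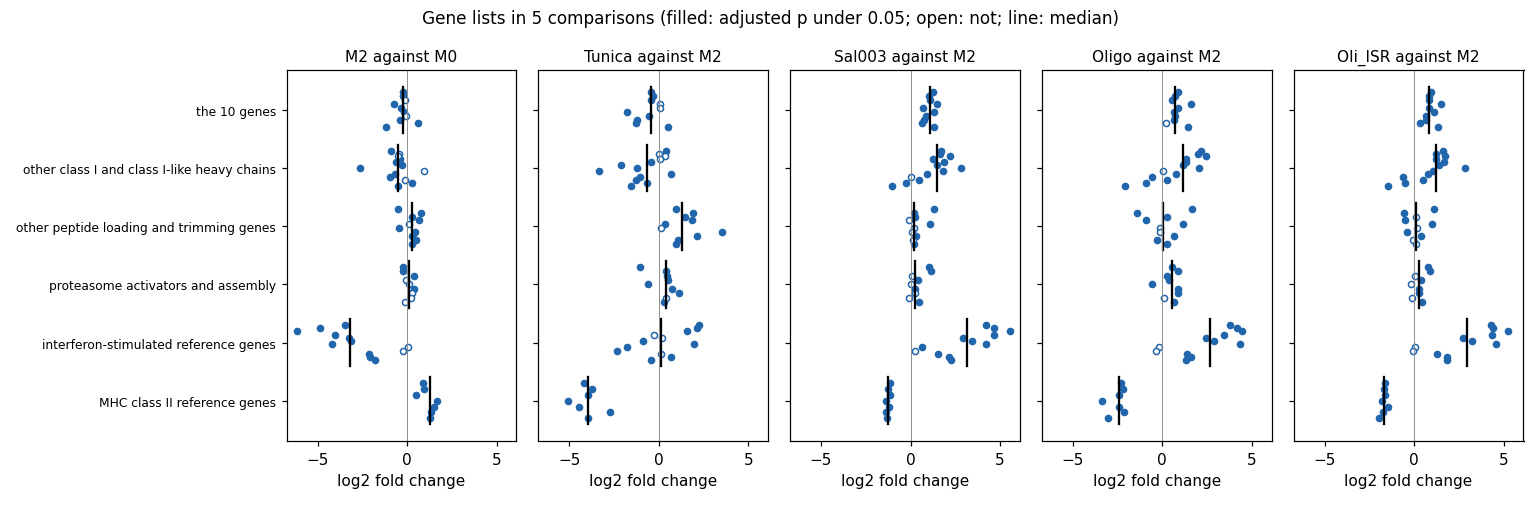
Log2 fold change of every tested gene of 6 lists in 5 comparisons, filled where the adjusted P was under 0.05, with the list's median as a line. The 7 class II genes lie at or below −1.13 with Sal003, where the 10 class I presentation genes lie between 0.62 and 1.46.

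The genes closest to 4 of the 10 in pattern were sought by Pearson's r of the mean log2 level over the 6 groups, among genes with a mean of at least 50 counts and outside the 10. The highest r values were picked from many genes over only 6 points. They are therefore high by selection and serve as a description only. For *Nlrc5* they were *Kdr* (r = 0.994), *Rnf114* (0.990) and *Rsad2* (0.990). For *H2-K1* they were *Pkib* (0.994), *Usp18* (0.994) and *Dpcd* (0.993), and for *B2m* they were *Pkib* (0.991), *Gvin1* (0.986) and *Dpcd* (0.985). For *Psmb9* they were *Trim25* (0.994), *Dennd2a* (0.992) and *Fxr1* (0.991). *Rsad2*, an interferon-stimulated gene, ran from 8.38 CPM in M2 to 198 in Oli_ISR, a wider range than that of *Nlrc5*, and *Trim25* from 187 CPM in Tunica to 521 in Oligo.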

How the data were processed

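RNA-seq libraries were made from polyadenylated RNA with the Watchmaker mRNA kit and sequenced as single reads of 150 bases. The authors trimmed adapters with Cutadapt 1.8, filtered out reads of ribosomal RNA or low complexity, mapped the rest to GRCm39 with STAR 2.7 and deposited raw counts per gene from htseq-count (HTSeq 0.9.1). Whether strand was used was not given in the sources used here. A deposited table of TPM values was not used. Reads not assigned to a single gene (12.7% to 15.2%) stayed out of library sizes. They include ambiguous reads (2.1% to 2.5%) and reads that align to several places (6.2% to 7.4%). Counts were scaled by TMM, filtered with filterByExpr and tested over all 24 libraries with edgeR 4.0.16 (glmQLFit and glmQLFTest, Benjamini-Hochberg), without a mouse term because the study's methods name none. Same-numbered libraries come from the same mouse (median correlation of deviations 0.236 over 60 pairs), so a fit with the mouse as a block was an alternative. Identifiers matched GENCODE vM39 in 56323 of 56884 cases. Levels per kb use the canonical transcript. Ratios were tested by exact permutation in scipy 1.17.1. The count test and the permutation test were first tested on simulated data.

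Replicate libraries differed by more than sampling noise in all 36 within-group pairs. Other settings were DESeq2 1.42.0, upper-quartile scaling, no filter, at least 10 counts in every library, only the groups compared, a 2-fold threshold and leaving out each library. The genes and lists were chosen with earlier results of these data known. Genes named from the lists, apart from *H2-M3*, were the 3 of highest level in a list and the gene of largest called change in each of 5 comparisons. A result for 1 gene that this rule names is not reported here.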

Additional observations from a re-analysis of the deposited data

Results flagged for a closer look

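In 84 sets of 4 libraries (10 genes and 4 ratios in 6 groups), 6 held a library far from the other 3, by Dixon's test at the 95% level on the gap to the nearest library. Chance flags about 1 in 20 such sets. Mouse 4 was the library in 5 of them. Its level of *H2-D1* in Oligo was 5976 CPM, against 5364 to 5451 in the other mice, and its level of *B2m* in Tunica was 2073 CPM, against 1879 to 1898. Its level of *Psmb10* in M2 was 154 CPM, against 163 to 165. Its ratio of *Psmb8* to *Psmb5* in Oligo was 3.69, against 4.14 to 4.17, and its ratio of *Psmb9* to *Psmb6* in M2 was 0.368, against 0.379 to 0.380. In M0 the library of mouse 5 had 129 CPM of *Tap1*, against 149 to 151 in the others. No explanation for these libraries was tested.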

How the results depend on the processing

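Of 100 changes of a single gene (10 genes in 10 comparisons), 84 were called, and 80 of these were called in the same direction under every other setting that was run. The 4 that were lost somewhere were *H2-K1* and *Tapbp* in M2 against M0 and *Psmb9* in Oligo and in Oli_ISR against M0. *Tapbp* lost its call without M0 replicates 2 or 4 and without M2 replicates 1, 2 or 5 (log2 fold changes −0.16 to −0.12), with DESeq2 (−0.15), with no filter (−0.14) and with only the groups compared (−0.17). *Psmb9* in Oli_ISR against M0 lost its call without M0 replicates 4 or 5 and without Oli_ISR replicates 2 or 5 (0.20 to 0.23), with upper-quartile scaling (0.21), with at least 10 counts in every library (0.25) and with only the groups compared (0.26). In Oligo against M0 it was lost without M0 replicates 1, 4 or 5 and without any 1 Oligo library (0.19 to 0.26), and with DESeq2 (0.24), upper-quartile scaling (0.21) or at least 10 counts in every library (0.21). In M2 against M0, *B2m* passed the threshold without the M0 library of mouse 5 (−0.17, adjusted P = 0.032). *H2-D1* in Oligo against Oli_ISR also passed with DESeq2, with at least 10 counts in every library, with only the groups compared and without Oligo replicate 4 (−0.18 to −0.14), and *Psmb10* in Oligo against M2 with no filter and with only the groups compared (0.23 to 0.24).

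At 2.5-fold, 2 genes were called with Sal003 and 2 in Oli_ISR. Each count was 1 with DESeq2, upper-quartile scaling, at least 10 counts in every library or only the groups compared, and in Oli_ISR also 1 with the replicate block. Leaving out 1 library moved it between 1 and 3 for Sal003 and between 1 and 2 for Oli_ISR. It was 3 for Sal003 without Sal003 replicate 4. It was 1 for Sal003 without M2 replicate 2 or Sal003 replicates 2 or 5, and 1 for Oli_ISR without M2 replicates 2 or 4 or Oli_ISR replicates 2 or 5. At 2-fold in place of 2.5-fold, 6 genes were called with Sal003 and 3 fell with tunicamycin in place of 1. *Nlrc5* lay at 1.33 on the log2 scale in both comparisons and at 1.28 to 1.31 under those 4 settings. The block changed no other call than those given in the report.

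Signs that changed were those of differences that no setting called. *Psmb8* in M2 against M0 ran from −0.16 to 0.08 when 1 library was left out. In Oligo against Oli_ISR, leaving out 1 library gave 0.00 to 0.07 for *Tap2*, −0.03 to 0.10 for *Psmb8*, −0.13 to 0.05 for *Psmb9* and 0.00 to 0.18 for *Nlrc5*, and upper-quartile scaling gave 0.01 for *Psmb9*. The proteasome and heavy chain ratios kept their direction when the division by length or a library was left out, except *Psmb9* to *Psmb6* in Oligo against Oli_ISR, which was not called (−0.08, and 0.02 without 1 library), and sign flips within mice (the replicate block) leave each difference as it is. The causes were not tested. The arrangement of both oligomycin groups rests on labels that disagree.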
